A study of Caenorhabditis elegans with 2 samples.

Results

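The vacuolar ATPase is a proton pump of the membrane of lysosomes, endosomes and, in some cells, of the cell surface. A cytosolic part named V1 hydrolyses ATP and a membrane part named V0 carries protons, so both parts are needed for a working pump. In Caenorhabditis elegans the pump acts in the intestine, the hypodermis and the excretory cell, among other tissues, and several of its subunits are encoded by more than 1 gene. Peaks of a tagged nuclear hormone receptor were examined at 10 vacuolar ATPase genes of the 19973 protein-coding genes of the nuclear chromosomes. The genes were chosen by name, with earlier results of the same peak lists already known. The V0 genes were vha-1, vha-2 and vha-3, which encode the proteolipid subunit c, vha-4, which encodes the related subunit c″, and vha-5, vha-6 and vha-7, which encode forms of subunit a. The V1 genes were vha-8 (subunit E), vha-11 (subunit C) and vha-12 (subunit B). A peak counted for a gene when its summit lay in the gene or within 2 kb upstream, and peak location and score are the measured values that define each count below. All such counts are descriptions and were not tested.

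The peaks come from chromatin immunoprecipitation with an anti-GFP antibody on whole L4 larvae, 50 h old and synchronised by L1 starvation after bleaching. Both biological replicates were of strain OP351, which carries the insertion wgIs351, with nhr-42::TY1 EGFP 3xFLAG and unc-119(+), in an unc-119(tm4063) background. They form 1 group. The antibody field of the labels names nhr-42 and their description anti-GFP. The promoter and tissues that drive the fusion and the sex of the animals are not given in the labels used here, and no precipitation from untagged animals was analysed here, so none of the values has a background measured the same way.

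A conservative series list of 1627 peaks and another series list of 1789 peaks rest on both replicates, and the replicates alone gave 875 and 702 peaks. These lists begin at a score of 830, which is an irreproducible discovery rate (IDR, the expected share of peaks at or above that score that do not repeat) of 0.01, scaled and capped at 1000. Longer ranked lists of 63908 to 106547 peaks also hold peaks under that threshold. The signal is the authors' value for each peak and has no stated unit. Signals of series and replicate lists are not on 1 scale, since the median over ranked peaks is 24.3 in the series list, against 16.7 and 17.7 in the lists of replicates 1 and 2. They are given side by side, and no change is read between the series and a replicate. Read depth is unknown.

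The DNA at the summits that matter most in what follows is shown here, 101 bp centred on each series summit, 5′ to 3′ in the direction of the vacuolar ATPase gene, from the RefSeq genome WBcel235 (build ce11). The first 6 are at the genes under study, and unc-32 and vha-9 are shown because they held 2 of the strongest upstream peaks of the other vacuolar ATPase genes. Each label gives the place of the series summit. The vha-8 window also reaches into a coding exon and the vha-2 window into an intron. Capitals mark a match to TGATAA, the core of a GATA factor site.
vha-12 upstream, chrX:4190693-4190793, plus strand: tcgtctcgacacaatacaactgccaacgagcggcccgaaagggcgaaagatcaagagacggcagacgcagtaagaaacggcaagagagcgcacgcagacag
vha-1 and sqv-3 upstream, chrIII:9780784-9780884, plus strand: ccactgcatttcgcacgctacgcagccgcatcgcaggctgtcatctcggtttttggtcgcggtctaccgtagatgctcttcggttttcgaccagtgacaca
vha-11 last intron, chrIV:2308379-2308479, minus strand: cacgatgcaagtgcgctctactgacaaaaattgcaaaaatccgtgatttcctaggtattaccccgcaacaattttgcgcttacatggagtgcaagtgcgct
vha-11 first intron, chrIV:2314292-2314392, minus strand: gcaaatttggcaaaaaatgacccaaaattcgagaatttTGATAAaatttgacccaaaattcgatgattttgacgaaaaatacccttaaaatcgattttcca
vha-8 intron, chrIV:6791485-6791585, plus strand: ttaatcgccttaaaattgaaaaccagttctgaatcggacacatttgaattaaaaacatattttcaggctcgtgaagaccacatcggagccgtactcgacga
vha-2 coding exon, chrIII:9782288-9782388, plus strand: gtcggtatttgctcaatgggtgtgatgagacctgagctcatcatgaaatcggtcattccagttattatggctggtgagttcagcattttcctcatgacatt
unc-32 and lin-9 upstream, chrIII:8904217-8904317, plus strand: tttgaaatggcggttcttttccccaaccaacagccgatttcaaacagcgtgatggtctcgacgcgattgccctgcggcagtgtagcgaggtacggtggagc
vha-9 upstream, chrII:10303834-10303934, minus strand: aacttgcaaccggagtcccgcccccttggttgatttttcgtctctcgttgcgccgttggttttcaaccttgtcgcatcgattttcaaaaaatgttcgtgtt

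At the series level 2 of the 10 genes held a conservative peak, both V1 genes, against 1564 of the 19973 protein-coding genes (7.83%). The summit of vha-12 lay upstream and that of vha-11 far inside the gene. No V0 gene (0 of 7) held one. In the other series list the count was 1 of 10 (vha-12), against 8.68% of all genes. With summits inside genes left out it was also 1 of 10, against 5.3%. With only the conservative peaks above the list's median signal it was 1 of 10, against 4.66%, and with 1 kb in place of 2 kb upstream it was 2 of 10, against 6.34%.

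**Figure D1:**
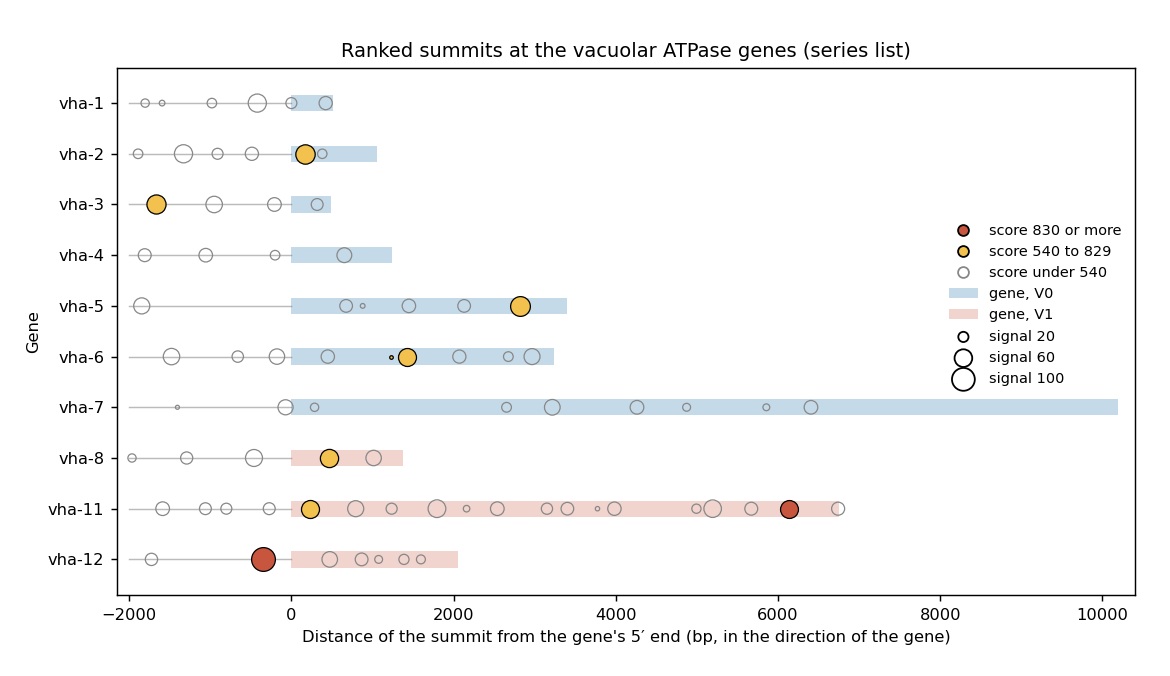
Ranked summits of the conservative series list at the 10 genes, one row per gene, by distance from the annotated 5′ end in bp along the gene. Circle area is proportional to the signal and fill gives the score. Bars are the genes (V0 blue, V1 red) and thin lines the 2 kb upstream. The filled red circles are at 351 bp upstream of vha-12 and 6138 bp into vha-11.

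The gene vha-12 encodes subunit B, part of the ATP-binding head of V1. Its peak, on X from 4190593 to 4190892, had a summit 351 bp upstream of the 5′ end and a series signal of 108 with a score of 1000 (IDR 0.00111), rank 615 of 1627 by signal. The peak was also past the threshold in each replicate, with a signal of 52.3 and a score of 990 in replicate 1 and a signal of 57.0 and a score of 869 in replicate 2. The replicate summits lay 18 and 12 bp from the series summit. It was the only peak at these 10 genes that passed in both replicates and in both series lists. No other protein-coding gene has this summit within its body or its 2 kb upstream. The next strongest summit of vha-12 lay 473 bp into the gene, in a coding exon, with a signal of 46.3 and a score of 304.

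The gene vha-11 encodes subunit C, which links V1 to V0. Its conservative peak, on IV from 2308279 to 2308578, was in the last intron, 6138 bp from the 5′ end, and its score of 835 was the lowest passing score at these genes. The series signal was 61.5, rank 1532 of 1627. The replicate signals were 31.4 (score 178) and 43.9 (score 583), and neither replicate list held the peak past the threshold. The same summit lies 1882 bp upstream of mksr-2, a gene of cilia, and the other series list did not hold it. A second summit, in the first intron at 225 bp, had a nearly equal series signal of 62.2 and just missed the threshold with a score of 814, with replicate signals of 32.7 and 39.1. The window of vha-11 is 8753 bp long and held 19 ranked summits, the most of the 10 genes.

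The gene vha-8 encodes subunit E, in the stalk of V1. Its highest score, 784 at a signal of 63.6, was that of a summit 461 bp into the gene, in an intron, with replicate signals of 39.98 and 32.99. A second summit 461 bp upstream had a series signal of 55.3 but a score of only 119, and replicate signals of 39.4 and 15. The replicates thus lay closer together at the intron than at the upstream summit.

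Conservative peaks also lay just past the 3′ ends of vha-8 and vha-11, outside the window that defines the counts. The peak at vha-8 had its summit 106 bp past the annotated end (IV, 6792411 to 6792710), a signal of 67.6 and a score of 945. Its replicate signals were 37.25 and 42.3, with scores of 99 and 44. The peak at vha-11 lay 227 bp past the end (IV, 2307438 to 2307737), with a signal of 91.1, a score of 981 and replicate signals of 41.2 and 41.5. Neither passed in a replicate's own list. The vha-11 peak lies 1041 bp upstream of mksr-2, the next gene in the same direction. With 500 bp downstream added to every gene, 3 of the 10 genes held a conservative peak (0 of 7 V0 genes and 3 of 3 V1 genes), against 9.18% of all genes.

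All ranked summits of the V0 genes were below the series threshold. For vha-5 the strongest summit, 2814 bp into the gene in a coding exon, had a signal of 74.9 and a score of 725, with replicate signals of 30.4 and 37.3. For vha-2 it lay in the first coding exon at 174 bp, with a signal of 72.0, a score of 745 and replicate signals of 29.7 and 40.7. Both signals were above the 61.5 of the vha-11 peak that passed, so at these genes the order by score is not the order by signal.

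For vha-3 the strongest summit was 1664 bp upstream, with a signal of 70.1, a score of 620 and replicate signals of 29.95 and 32.02. It lies inside the neighbouring gene Y38F2AL.12, and some of its sequence is repeated, with up to 252 genomic copies of a 24-base stretch within 75 bp of the summit. For vha-6, the subunit a gene of the intestinal apical membrane, it lay in a coding exon at 1424 bp, with a signal of 62.0, a score of 602 and replicate signals of 28.3 and 32.7. At both genes the replicate signals were close to each other. At vha-6 the replicate 1 summit lay 129 bp from the series summit and the replicate 2 summit 3 bp from it.

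The lowest of the strongest signals were at vha-7 and vha-4. For vha-7 the strongest summit of its long window of 12191 bp was in a coding exon at 3217 bp, with a signal of 47.0, a score of 255 and replicate signals of 30.0 and 18.9. For vha-4 it was in a coding exon at 653 bp, with a signal of 42.0, a score of 366 and replicate signals of 26.9 and 23.2. The median over all protein-coding genes with a ranked summit was 44.8, between the values of vha-7 and vha-4.

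**Figure D2:**
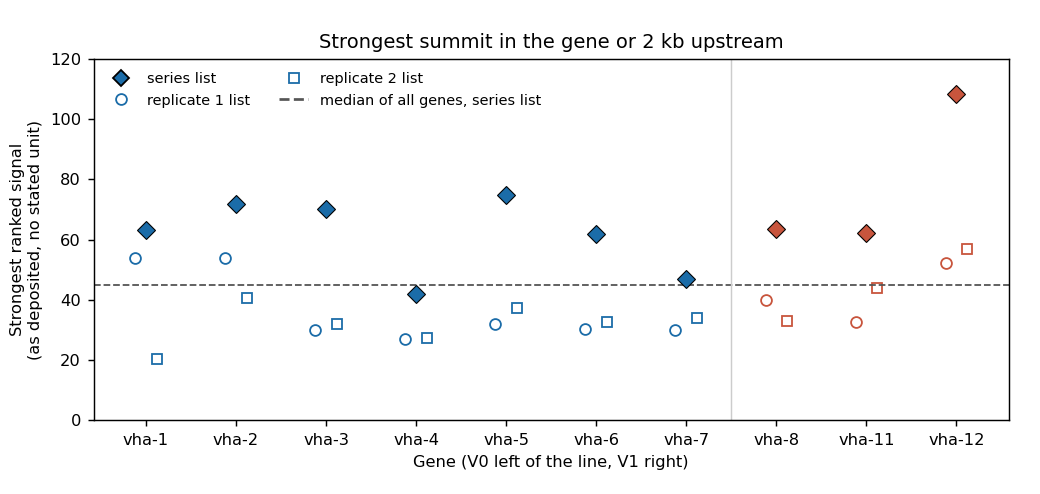
Strongest signal of a ranked summit in each gene or its 2 kb upstream, in the series list (diamonds), replicate 1 (circles) and replicate 2 (squares). Signals are as deposited, with no stated unit, and the replicate points need not be the same summit. The dashed line is the series median of all genes, 44.8. At vha-1 the replicates are furthest apart, at 53.9 and 20.35.

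Set side by side, the strongest series signals were 42.0 to 74.9 at the V0 genes (median 63.2) and 62.2 to 108 at the V1 genes (median 63.6), so the ranges overlapped. The highest scores did not overlap, with 174 to 745 at the V0 genes and 784 to 1000 at the V1 genes. Only 3 V1 genes are among the 10, and the score ranges overlap when the remaining subunits are added, as described below. Over the 10 genes the median strongest signal was 63.4 and the median highest score 672.5, against 44.8 and 256 over all protein-coding genes that held a ranked summit (17073). The median window was 3720 bp at the 10 genes and 4030 bp over all genes. In the percentiles of all genes the strongest signals ran from 42.8% of genes below (vha-4) to 95.7% (vha-12).

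At a relaxed IDR of 0.05 (a score of 540), 7 of the 10 genes held a ranked summit, 4 of 7 V0 genes and 3 of 3 V1 genes, against 16.3% of all genes. The V0 genes were vha-2, vha-3, vha-5 and vha-6. These counts are of the ranked list that holds every conservative peak. In the other ranked series list, only vha-3 of these V0 genes passed, with a highest score of 663. The highest scores there were 451 at vha-2, 537 at vha-5 and 328 at vha-6, while the 3 V1 genes passed in both lists. The relaxed threshold was added after the data were seen. In all, 69 different ranked peaks had summits in the windows of the 10 genes, of which 9 (13.0%) passed the relaxed threshold and 2 (2.9%) the authors' threshold, against 3.79% and 1.6% of the whole ranked list. All these peaks lie in genes selected with such results known. Among the 9 was a second vha-6 summit, 1223 bp into the gene, with a signal of only 2.47. It had the same score of 602 and the same replicate peaks as the vha-6 summit at 1424 bp. A ranked peak of both replicates overlapped 42 of the 69 (60.9%), one of replicate 1 alone 8 (11.6%) and one of replicate 2 alone 15 (21.7%). The remaining 4 overlapped no ranked peak of either replicate. Over the whole ranked list of 105959 peaks, 39.2% overlapped peaks of both replicates and 23.4% one of replicate 2 alone. In that list 18058 peaks overlapped one of replicate 1 alone and 21505 overlapped neither. The median signal was 31.9 at these genes, against 24.3 in the whole list, and the median score 107, against 103.

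Genes that share an upstream region were examined next. Of the 10 genes, 8 share their 2 kb upstream with another protein-coding gene, either one that points away from it or one that precedes it in the same direction, and vha-5 and vha-12 do not. None of the 8 had an upstream summit past the series threshold, and of the other 2 only vha-12 did, beside 5.3% of all genes, and nothing is read from 0 of 8 beside that share. The strongest upstream signal was 35.3 to 70.1 at the genes that share (median 53.5), and 49.6 and 108 at vha-5 and vha-12. By signal, the strongest upstream summit exceeded the strongest summit inside the gene at 3 of the 10 genes, vha-1, vha-3 and vha-12. At vha-1 the order of these summits by score was the reverse, with 90 upstream and 174 inside. The genes vha-1 and vha-3 are only 510 and 486 bp long, against 2 kb upstream. The share of all genes was not computed, and nothing is read from this count.

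The genes vha-1 and vha-2 lie in tandem on III, with the 5′ end of vha-2 910 bp beyond that of vha-1, so a summit upstream of vha-1 counts for both. The 5′ end of sqv-3, a gene for a galactosyltransferase, lies 900 bp from that of vha-1 and points away from it. The replicate 1 list held a peak past its threshold between them (III, 9780666 to 9780941), with a signal of 53.9, a score of 994 and a summit 450 bp from the 5′ ends of both vha-1 and sqv-3. No ranked peak of replicate 2 overlapped the series peak at this place. In the series list the peak had a signal of 63.2, above that of the passing vha-11 peak, but a score of 90 (IDR 0.606), and it did not pass. In replicate 1 alone, 3 of the 10 genes thus held a peak past the threshold (vha-1, vha-2 and vha-12), against 4.81% of all genes, and in replicate 2 alone 1 of 10 (vha-12), against 3.8%. Among the peaks past the threshold in any list at these 10 genes, this was the only one with no overlapping ranked peak in the other replicate, and the cause was not tested.

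The other summits of this pair behaved differently. The summit 423 bp into vha-1, in its coding exon and 487 bp upstream of vha-2, had a signal of 33.4, a score of 174 and replicate signals of 14.6 and 20.35. The score of 174 is the highest at vha-1 and the lowest among the highest scores of the 10 genes. The strongest summit of the pair, inside vha-2, does not lie in the region that vha-1 and vha-2 share upstream.

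The genes vha-3 and vha-11 lie in tandem on IV, in the order vha-3 and then vha-11, with 893 bp between the 3′ end of vha-3 and the 5′ end of vha-11. Their common stretch held no summit past the threshold. The summit 209 bp upstream of vha-3, which is 1587 bp upstream of vha-11, had a signal of 35.9 and a score of 152, with 18.1 in replicate 1 and no ranked peak in replicate 2. In the gap between the genes, 273 bp upstream of vha-11, the signal was 27.2 and the score 88, with 34.9 in replicate 2 and no ranked peak in replicate 1. Both were weaker than the strongest summits inside vha-11 and 1664 bp upstream of vha-3.

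**Figure D3:**
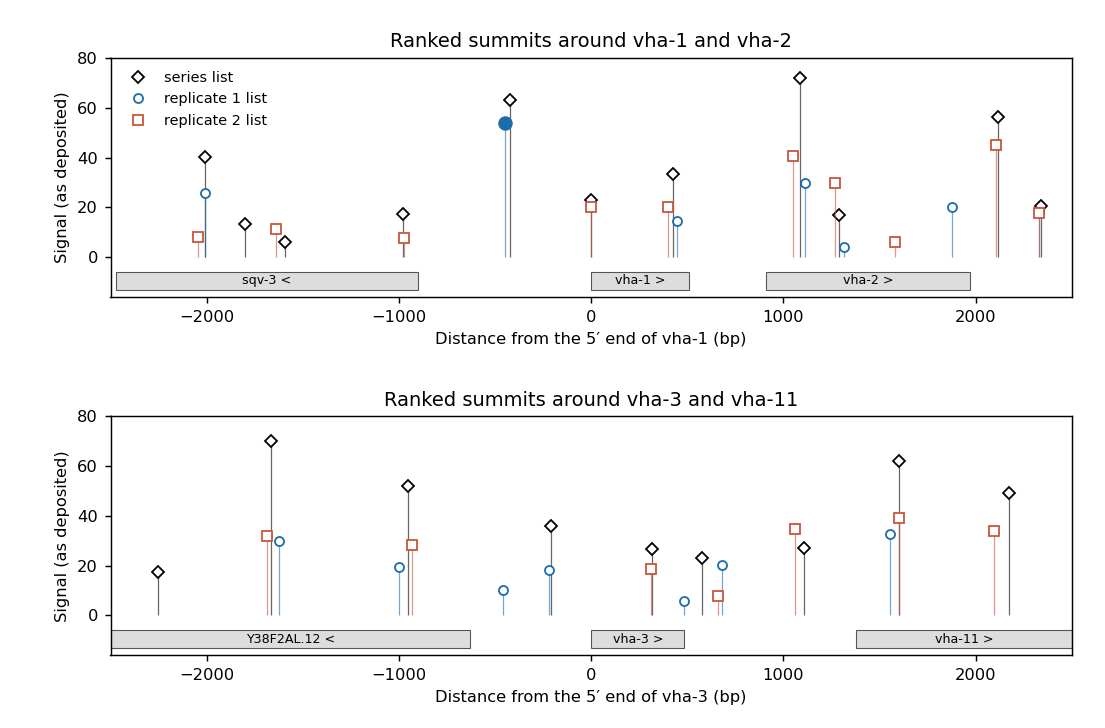
Ranked summits around vha-1 and vha-2 (top) and around vha-3 and vha-11 (bottom), by distance in bp from the 5′ end of vha-1 or vha-3. Height is the signal as deposited, for the series list (diamonds), replicate 1 (circles) and replicate 2 (squares), and filled symbols have a score of 830 or more. Boxes are genes, with their direction, and the lower panel ends inside vha-11, before its conservative peaks. The only filled symbol in the stretches drawn is the replicate 1 peak of signal 53.9 at 450 bp upstream of vha-1.

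Upstream scores were low at the other genes that share a region. The 5′ end of T01H3.5 lies 300 bp from that of vha-4 and that of perm-1 1496 bp, and the highest upstream score of vha-4 was 98. For vha-7, whose neighbour C26H9A.3 begins 1051 bp upstream, it was 224, at a summit 72 bp upstream with a signal of 43.5, seen in replicate 2 (19.8) and not in replicate 1. For vha-8, whose neighbour C17H12.2 begins 586 bp upstream, it was 119. The gene VW02B12L.2 ends 725 bp upstream of vha-6 in the same direction, and the highest upstream score of vha-6 was 323. None of these was near the threshold.

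Coding sequence offers a check on reads that could belong to several of the proteolipid genes. The proteins predicted from vha-2 and vha-3 were identical over 161 residues, while their coding sequences were 85.1% identical and shared no stretch of 24 bases. The vha-1 protein was 62.7% identical to both, and vha-4 was 25.7% identical to vha-1. The sequence around the strongest vha-2 summit was single copy (24-base stretches within 75 bp), as it was at vha-12, at the peak upstream of vha-1, at vha-5, vha-6 and vha-8 and in the first intron of vha-11. In the last intron of vha-11 single stretches reached 6 copies, with a median of 1.

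GC content differed between the summit windows. In the 10 summit windows of these genes at a relaxed IDR of 0.05 or at the peak upstream of vha-1, 101 bp each, GC content ran from 29.7% in the first intron of vha-11 to 56.4% upstream of vha-12 and of vha-1. Both vha-6 summits, at 1424 and 1223 bp, are among the 10. The median of all conservative peaks was 49.5% (quartiles 43.6% and 54.5%), that of ranked peaks below the threshold 39.6%, and that of the 101 bp before protein-coding 5′ ends 32.7%. The windows upstream of vha-12 and vha-1 lay above the upper quartile of the conservative peaks, while the upstream window of vha-3 (52.5%) lay between the quartiles. The windows in the first intron of vha-11 and in the intron of vha-8 (39.6%) lay below the lower quartile.

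Of 4 motifs searched on both strands, 3 had no match in these 10 windows. These were the nuclear receptor half-site AGGTCA, the E-box CACGTG and its extension TCACGTGA, which contains the E-box and is bound by the TFEB family, known in mammals for lysosomal genes. The half-site was found in 2.89% of conservative windows, 2.7% of ranked windows below the threshold and 3.12% of windows before 5′ ends. The E-box was found in 4.18%, 2.37% and 2.47%, and its extension in 0.43%, 0.122% and 0.431%. The GATA site TGATAA matched in 1 of the 10 windows, in the first intron of vha-11, against 6.08%, 7.98% and 12.6%. A window without a match says only that these letters are absent from it.

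The other 12 vacuolar ATPase genes give the setting for the 10. A conservative peak counted for 6 of the 12 (vha-16 and unc-32 of 3 V0 genes, vha-9, vha-13 and spe-5 of 7 V1 genes, and vha-20 of 2 accessory genes), against the same 7.83% of all genes. Over all 22 genes, 2 of 10 V0 genes and 5 of 10 V1 genes held one, and the highest scores were 174 to 1000 at the V0 genes and 166 to 1000 at the V1 genes. The ranges of highest score, separate among the first 10 genes, therefore overlap over the full set. The median highest score was 611 at the V0 genes and 816.5 at the V1 genes of the full set. Among the first 10 genes it was 602 and 835. The list of 22 was made with earlier results known, and no test of it was made.

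At 3 of these 6 genes a conservative summit lay within 1 kb upstream. The summit 171 bp upstream of vha-9 (subunit F) had a signal of 98.4 and a score of 1000, with 45.2 and 54.4 in the replicates. It passed in replicate 2 alone with a score of 855, and also lies 1042 bp upstream of clpp-1. The summit 149 bp upstream of vha-16 (subunit d) had a signal of 74.9 and a score of 834, and a stronger one lay 1128 bp into the gene in a coding exon (96.9, score 1000). For vha-13 (subunit A, the catalytic subunit), the summit was 555 bp upstream and inside the preceding gene cept-2, with a signal of 93.9 and a score of 1000.

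At the other 3 genes the summit was farther upstream and nearer to the 5′ end of another gene or inside one. The strongest peak of the 22 genes, 1348 bp upstream of unc-32 (a subunit a gene of neurons) with a signal of 183 and a score of 1000, was 136 bp upstream of lin-9, a gene of the DRM complex. It passed in both replicates, with signals of 93.7 and 83.1. At spe-5, a further subunit B gene, the summit 1388 bp upstream (97.3) lay 47 bp inside chp-1 and 1340 bp upstream of use-1. At vha-20 the summit 1063 bp upstream (84.4) lay inside sym-4.

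The genes vha-10, vha-14, vha-15, vha-17, vha-18 and vha-19 held no conservative peak. The highest score was 798 at vha-10 (subunit G) and 753 at vha-19, an accessory subunit gene, and both passed in the other series list, at 864 and 889. The vha-10 summit lay 1486 bp upstream, inside the neighbouring gene trpp-8 and a snoRNA gene. At vha-14 (subunit D) the highest score was 166 and at vha-18 240, at vha-17 (subunit e) 462 and at vha-15 (subunit H) 635. In the 8 passing windows of the other 12 genes the half-site, the E-box and its extension again had no match, and TGATAA matched in 1, at vha-20.

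**Figure D4:**
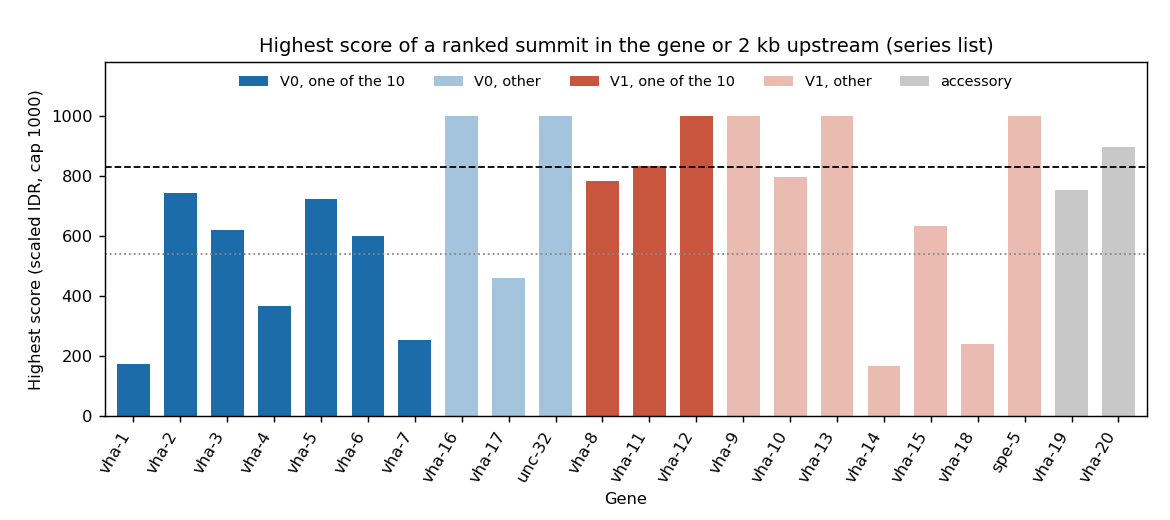
Highest score of a ranked summit in each of the 22 vacuolar ATPase genes or its 2 kb upstream, in the conservative series list. Scores are scaled IDR values capped at 1000. The dashed line is the authors' threshold of 830 and the dotted line a score of 540. Dark bars are the 10 genes studied, pale bars the others, with V0 in blue, V1 in red and accessory genes in grey.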

How the data were processed

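Peak lists of 2 replicates of 1 group were used as deposited, on build ce11 per the file descriptions. The score of each peak is the authors' scaled IDR, the signal is the authors' value with no stated unit, and the ranked lists also give, from the authors, each peak's global IDR as its −log10. Replicate lists come from 1 alignment and series lists from both, per the file descriptions. The sources used here name no peak caller, aligner or version. Of the ranked series peaks 1693 reach the threshold score and 1627 are in the conservative list. The 4 columns of replicate signals in the series ranked lists were not used. Read depth is unknown.

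Genes were taken from Ensembl release 115 (WBcel235), and sequence from the RefSeq genome, whose chromosomes contain every peak. A summit counted for every gene whose span or 2 kb upstream held it. The ranked series list used is the one that holds every conservative peak. A series peak's replicate value is that of the overlapping ranked replicate peak (at least 1 bp) with the nearest summit. Motifs and GC were read within 50 bp of a summit. Protein identity was computed from the annotated coding sequences by global alignment. The named genes are the 10, the other 12 of the pump, and genes that share a summit or upstream region with them. The 10 genes and all lists were chosen with earlier results of these data known, and no test between groups was made. The alternatives were the other list, a stricter and a relaxed threshold, other windows, another overlap rule, the nearest 5′ end and each replicate alone. Assignment was checked on simulated summits. Python 3.11.15, numpy 2.4.6, pandas 2.3.3 and matplotlib 3.10.9 were used.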

Additional observations from a re-analysis of the deposited data

How the results depend on the processing

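The count of the 10 genes with a conservative peak, 2, became 1 with the other series list, with only the peaks above the list's median signal and with 2 kb upstream only, 7 at an IDR of 0.05, and 1 to 3 when either replicate was left out. The V0 count of 0 became 4 at an IDR of 0.05 and was 0 to 2 without either replicate. The counts at an IDR of 0.05 are of the ranked list that holds every conservative peak. In the other ranked series list vha-2, vha-5 and vha-6 did not reach that threshold. The V1 count of 2 became 1 with the other list, the peaks above the median signal and 2 kb upstream only, and was 1 without either replicate. The count of 6 among the other 12 genes became 3 with 1 kb upstream (6.34% of all genes, against 7.83% with 2 kb) and 1 to 2 without either replicate (1 without replicate 2, against 4.81% of all genes, and 2 without replicate 1, against 3.8%). Among the other 12 genes the count was 8 with the other series list (8.68% of all genes) and 4 with the peaks above the median signal (4.66%). It was 8 with 500 bp downstream added (9.18%) and 9 at an IDR of 0.05 (16.3%). The IDR of 0.05 and the 500 bp downstream were chosen after seeing the data. With 1 kb upstream the strongest series signal was lower at vha-3 (52.0 against 70.1) and did not change at the other 9 genes. The other ranked series list gives a shared peak the same signal, and the replicate lists have another scale, so neither shows whether the strongest signals are stable. By the nearest 5′ end 2 of the 10 genes were called, vha-8 and vha-12, and vha-11 was not. The share of all genes under this rule is not given here, so nothing is read from that count. The vha-12 peak was held under all the alternatives for the 10 genes. No paired analysis was possible because the series has 1 group. Depth is unknown, so how far weak peaks are limited by it could not be measured.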
